A study of Mus musculus with 12 samples.

Results

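Nfkbia, Tnfaip2, Birc3, Tbk1 and Peli1 are genes of NF-κB feedback and of interleukin-1 (IL-1) signalling, described here in primary mixed mouse glial cells given IL-1β or vehicle. All probes whose gene symbol in the platform annotation is one of these 5 names were taken, which gave 7 of 8734 probes (5 of 5723 named genes): 2 for Nfkbia, 2 for Tbk1 and 1 for each of the others. All 7 had a value on every array used, as did 5713 probes in all. The genes were chosen by earlier results on these same arrays, in which Nfkbia, Tnfaip2, Birc3 and Tbk1 had higher intensities with IL-1β in wild-type glia. The wild-type change is therefore given as a description with no test, and so is the difference between genotypes, which contains it. The change in IL-1R1-/- glia did not choose the genes and is tested.

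The groups used were IL-1R1-/- glia with IL-1β (2 arrays), IL-1R1-/- glia with vehicle (2), wild-type glia with IL-1β (3) and wild-type glia with vehicle (3). IL-1R1-/- glia lack the signalling receptor for IL-1, and the cells of all groups had been in culture for 10 to 12 days. IL-1β, written rrIL-1β in most labels, was given at 10 ng/ml for 4 hours, and each treated culture had a vehicle culture of the same replicate. RNA was copied into radio-labelled cDNA and hybridised to arrays with 1 intensity per probe, so a change in a transcript and a change in the mixture of cells cannot be told apart. No source used here gives the age, sex or strain of the mice or the deleted part of Il1r1.

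The remaining pair, IL-1R1-/- replicate 3, was left out because its columns are copies. At 6 of 6 member probes with a value, the column labelled IL-1β equalled IL-1R1-/- vehicle replicate 1 divided by 1.67, and the column labelled vehicle equalled wild-type vehicle replicate 1 divided by 0.891 (within 1e-04 on the log2 scale). Tnfaip2 has no value in either copy. Median deposited intensity ran from 4649 to 60399 over the 10 arrays, so intensities were set to a common distribution by quantile normalization and are given on the log2 scale, where a difference of 1 is a doubling. The files hold no background or detection call, so a probe cannot be called present or absent. Changes with IL-1β also depended on a probe's place in the deposited list, in a pattern that repeats like plates of 16 rows and 24 columns; this layout, and the well it gives each probe, are inferred from the values. Of the marker lists, 3 of 10 astrocyte and 3 of 12 microglial genes could be tested. With IL-1β in wild-type glia 1 of the astrocyte markers (Glul) was lower and 0 of the microglial markers passed in limma at an adjusted p of 0.05. Of all 5713 probes 353 passed there, 260 of them higher. Glul had log2 -0.84 on its brightest probe, which was -0.57 with the position trend removed (adjusted p = 0.112), and -0.10 on its other probe. Of the markers of other cells 1 of 5 endothelial and mural genes (Emcn) was higher (log2 0.84, and 0.22 with an adjusted p = 0.555 after trend removal), and 0 of 3 oligodendrocyte, 0 of 2 neuronal and 0 of 2 fibroblast genes passed. The mural gene Rgs5 did not pass on its brightest probe (log2 0.22). On probe 6441 it had 0.685 (limma adjusted p = 0.0389), which was 0.13 after trend removal, and on probe 6792 it had 0.32. In IL-1R1-/- glia 0 of the genes on these lists passed, and 0 of all 5713 probes did. Whether the mixture of cells changed, and what part that had in the members' values, was not tested.

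IL-1β binds IL-1R1 and its accessory protein, and the complex signals through the adaptor MyD88, IRAK kinases and the ubiquitin ligase TRAF6 to the IκB kinases. These phosphorylate IκBα, the product of Nfkbia, which otherwise holds NF-κB in the cytoplasm; once IκBα is degraded, NF-κB enters the nucleus and transcribes its targets. Nfkbia is itself such a target, so newly made IκBα ends the signal. In glia this pathway drives the inflammatory response to injury and infection.

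The promoters of the members at which the wild-type change was largest, Nfkbia and Tnfaip2, are printed because both hold a match to the κB consensus, the DNA element that NF-κB binds. The windows are from RefSeq (GRCm38.p6), 5′ to 3′ on the gene's strand, with 250 bases before and 50 after an annotated start and the match in capitals. The Nfkbia window lies at chr12:55492598-55492897 on the minus strand and the Tnfaip2 window at chr12:111442411-111442710 on the plus strand.
Nfkbia: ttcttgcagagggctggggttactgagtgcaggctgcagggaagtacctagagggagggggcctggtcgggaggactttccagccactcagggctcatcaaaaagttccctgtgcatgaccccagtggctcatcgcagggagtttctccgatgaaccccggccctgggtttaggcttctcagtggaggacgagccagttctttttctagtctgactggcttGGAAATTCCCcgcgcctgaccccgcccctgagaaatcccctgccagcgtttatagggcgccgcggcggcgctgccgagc
Tnfaip2: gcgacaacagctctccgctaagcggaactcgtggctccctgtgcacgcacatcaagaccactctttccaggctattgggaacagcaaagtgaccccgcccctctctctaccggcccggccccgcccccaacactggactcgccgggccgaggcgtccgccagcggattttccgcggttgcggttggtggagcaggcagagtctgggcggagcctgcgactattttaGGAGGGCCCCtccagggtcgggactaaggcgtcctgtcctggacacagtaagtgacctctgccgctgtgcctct
Relative to the start, the Nfkbia match lies at positions -29 to -20 and the Tnfaip2 match at -24 to -15, both found on the strand opposite to the gene. The consensus was searched on both strands, and 8.46% of 32851 promoter windows of this length hold at least 1 match, so a match by itself is common. The windows of Birc3, Tbk1 and Peli1 hold none, which says only that these letters are not in these 300 bases. For Tnfaip2, Birc3 and Peli1 the start that the table uses lies inside the annotated gene, so other starts were not searched. A second form of the motif, which fixes an A after the run of G, leaves the next 4 bases free and ends in CC, is wider in the middle and narrower at the A. It was found in 20.7% of all windows and in those of Nfkbia (2 matches, 1 of them at the consensus match) and Birc3, and not in that of Tnfaip2.

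Nfkbia had its highest level in wild-type glia with IL-1β on both of its probes. On probe 5529 the log2 intensity was 17.21, 16.10 and 16.32 in wild-type IL-1β glia (replicates 1, 2 and 3), against 15.05, 14.61 and 14.59 in wild-type vehicle glia. On probe 6646 it was 16.36, 16.36 and 15.63 in wild-type IL-1β glia, against 14.33, 14.71 and 14.60 in wild-type vehicle glia. Each IL-1β array lay above all vehicle arrays of that genotype on both probes. The change was log2 1.79 ± 0.19 on probe 5529 and 1.57 ± 0.20 on probe 6646 (SE of the fit, n = 3 pairs), or 3.46-fold and 2.97-fold. Replicate 1 had the largest change on both probes (2.16 and 2.02), and the order of replicates 2 and 3 differed between the probes. Without replicate 1 the changes were 1.61 and 1.34.

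Without the receptor Nfkbia did not pass the test. Probe 5529 had 15.18 and 15.08 in IL-1R1-/- IL-1β glia (replicates 1 and 2), against 14.81 and 15.31 in IL-1R1-/- vehicle glia. Probe 6646 had 14.07 and 14.61 in IL-1R1-/- IL-1β glia, against 14.48 and 14.86 in IL-1R1-/- vehicle glia. The groups overlapped on both probes, and the pairs moved in opposite directions on probe 5529. The changes were log2 0.072 ± 0.24 and -0.33 ± 0.24 (SE, n = 2 pairs), with adjusted p = 0.956 and 0.788 in limma, the linear model fitted over all 5713 probes. The response of IL-1R1-/- glia minus that of wild-type glia was log2 -1.72 ± 0.31 and -1.90 ± 0.32 (SE).

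Tnfaip2, a gene induced by tumour necrosis factor whose product takes part in forming thin membrane bridges between cells, had changes of opposite sign in the genotypes. Its log2 intensity was 16.03, 15.82 and 15.87 in wild-type IL-1β glia, against 14.33, 14.79 and 14.52 in wild-type vehicle glia. It was 14.76 and 14.47 in IL-1R1-/- IL-1β glia, against 15.36 and 15.44 in IL-1R1-/- vehicle glia. The treated and vehicle arrays did not overlap in either genotype, wild-type arrays being higher with IL-1β and IL-1R1-/- arrays lower. The wild-type change was log2 1.36 ± 0.19 (SE, n = 3 pairs; 2.57-fold), and 1.19 without replicate 1.

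The IL-1R1-/- change of Tnfaip2 was log2 -0.79 ± 0.23 (SE, n = 2 pairs; limma adjusted p = 0.601, unadjusted p = 0.00401), lower in 2 of 2 pairs. Of all probes, 18.9% had both IL-1R1-/- IL-1β arrays below both vehicle arrays. The adjusted p was 0.0169 with median centring, 0.0204 without normalization between arrays and 0.0294 with the IL-1R1-/- arrays fitted alone, within a range of 0.0169 to 1.0 over 12 alternatives. With median centring 177 of all 5713 probes passed in IL-1R1-/- glia, and 1 of them was higher. Without normalization between arrays 153 passed, with 1 higher, and with the IL-1R1-/- arrays fitted alone 108 passed, with 40 higher. Passing with these settings was thus not particular to Tnfaip2. The 24 probes nearest to Tnfaip2 in the list had a median change of 0.12 in IL-1R1-/- glia, with 0 of them below it. The 8 probes in its inferred well on other plates were all lower with IL-1β in these cells, with a median of -0.42 and a range of -0.81 to -0.17. What part the position had in the Tnfaip2 value was not tested. The response of IL-1R1-/- glia minus that of wild-type glia was log2 -2.15 ± 0.29 (SE).

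Birc3 encodes cIAP2, a ubiquitin ligase that protects cells from death and acts in tumour necrosis factor and NF-κB signalling. It had 14.68, 14.66 and 14.74 in wild-type IL-1β glia, against 13.78, 13.75 and 13.69 in wild-type vehicle glia, with little spread within either group. In IL-1R1-/- IL-1β glia it had 14.47 and 14.30, against 14.06 and 14.29 in IL-1R1-/- vehicle glia. The wild-type change was log2 0.95 ± 0.17 (SE, n = 3 pairs; 1.94-fold), and the IL-1R1-/- change 0.21 ± 0.21 (SE, n = 2 pairs; adjusted p = 0.842 in limma). All 5 IL-1R1-/- and wild-type pairs were higher with IL-1β, the smallest being 0.01 in IL-1R1-/- replicate 2. With the position trend removed, the wild-type groups of Birc3 overlapped (14.08 to 14.69 with IL-1β and 13.90 to 14.24 with vehicle). The pair of IL-1R1-/- replicate 2 then had -0.017.

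Tbk1, a kinase related to the IκB kinases that also activates interferon regulatory factors, gave different answers on its 2 probes. Probe 6474 had 14.89, 15.25 and 15.06 in wild-type IL-1β glia, against 14.18, 14.53 and 14.32 in wild-type vehicle glia. Probe 3522 had 13.74, 13.98 and 13.42 in wild-type IL-1β glia, against 14.08, 13.50 and 13.80 in wild-type vehicle glia. On probe 6474 the groups did not overlap and the 3 pairs changed by 0.70, 0.72 and 0.73. On probe 3522 the groups overlapped, and the pairs changed by -0.34, 0.47 and -0.38. Probe 3522 was among the dimmest 25% of the 5713 probes by mean intensity, and probe 6474 was not. No source used here says which transcripts each probe detects. In IL-1R1-/- glia the changes were log2 0.00 ± 0.20 on probe 6474 and 0.18 ± 0.25 on probe 3522 (SE, n = 2 pairs; limma adjusted p = 0.999 and 0.891).

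Peli1, a ubiquitin ligase that binds IRAK kinases, had 14.40, 15.23 and 14.70 in wild-type IL-1β glia, against 13.93, 14.19 and 14.28 in wild-type vehicle glia. In IL-1R1-/- IL-1β glia it had 14.42 and 14.75, against 14.17 and 14.60 in IL-1R1-/- vehicle glia. Wild-type IL-1β arrays all lay above wild-type vehicle arrays, and replicate 2 had the largest pair change (1.04, against 0.47 and 0.42 in replicates 1 and 3). The wild-type change was log2 0.64 ± 0.18 (SE, n = 3 pairs), or 0.45 without replicate 2. The IL-1R1-/- change was 0.20 ± 0.22 (SE, n = 2 pairs; adjusted p = 0.858 in limma).

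**Figure D1:**
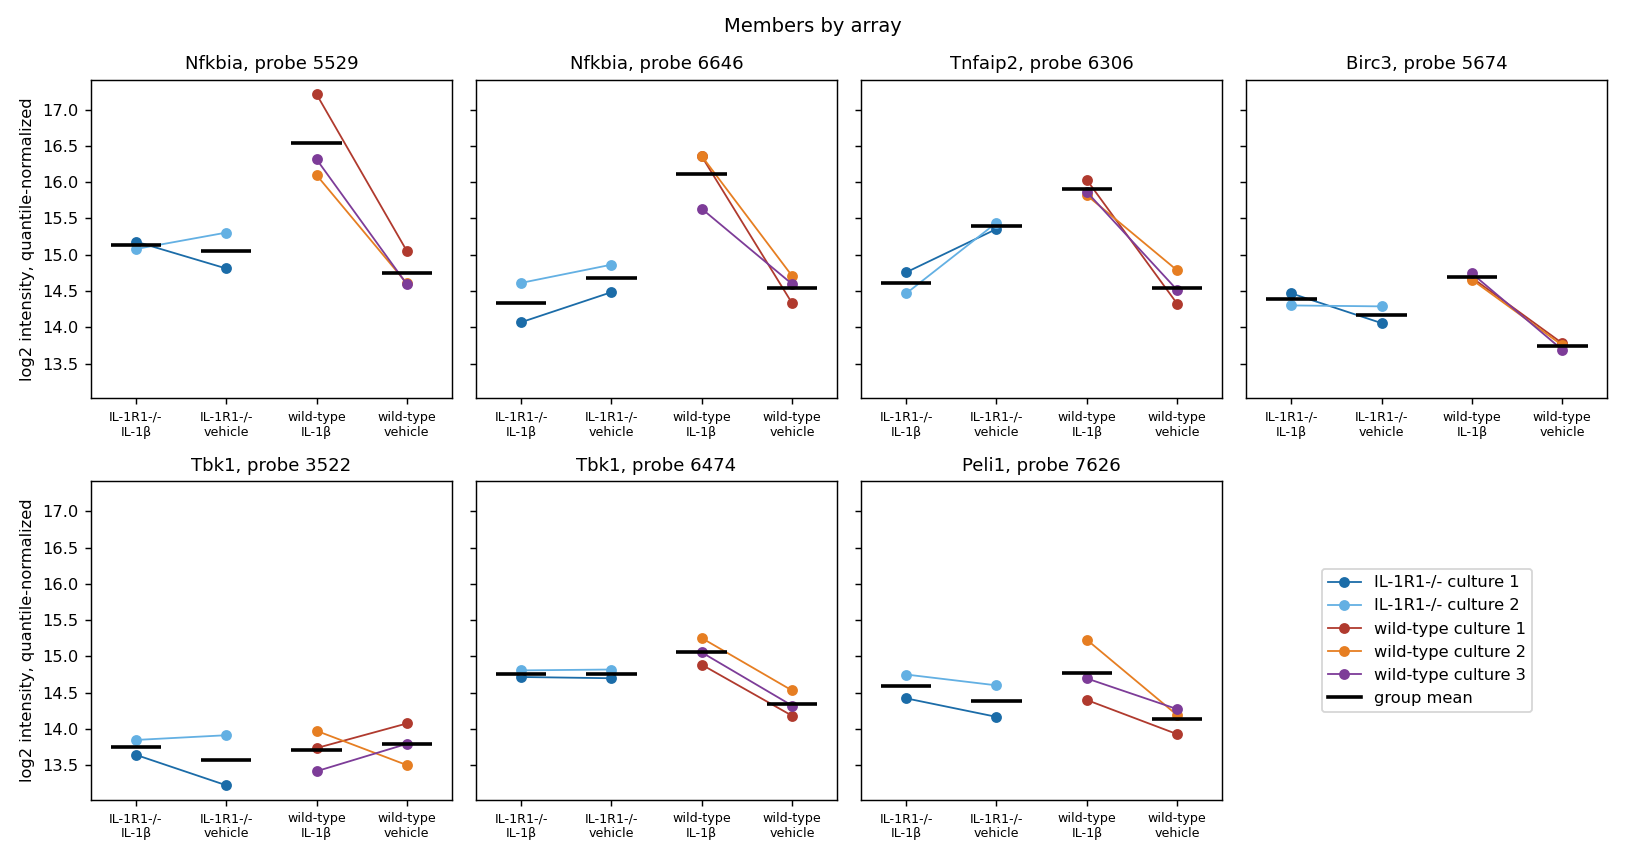
Quantile-normalized log2 intensity of the 7 member probes on each array, by group, with a line joining the arrays of a culture and a black bar at the group mean. Nfkbia reaches 17.21 in wild-type glia with IL-1β, and Tnfaip2 is highest there and lowest of all in wild-type vehicle replicate 1 (14.33).

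Of the 7 member probes, 5 from 4 genes passed in limma as higher with IL-1β in wild-type glia, where 4.55% of all probes did; this is the contrast that chose the genes, so nothing is read from it. Likewise 6 of 7 had all wild-type IL-1β arrays above all vehicle arrays, as did 8.1% of all probes. The values on either side of that threshold, as a description, were log2 0.72 on Tbk1 probe 6474, just inside, and 0.64 for Peli1, just outside. With the settings changed, Tbk1 probe 6474 was inside in 5 of 13 alternatives and Peli1 in 3 of 13. These counts take wild-type arrays alone and the omission of either IL-1R1-/- replicate as separate alternatives, though all gave the same wild-type fit. In IL-1R1-/- glia 0 of 7 member probes passed, where 0.0% of all probes did (0 of 5713 in limma, with 434 at an unadjusted p under 0.05). With IL-1β, every IL-1R1-/- array lay below every wild-type array at 5 of the 7, namely both Nfkbia probes, Tnfaip2, Birc3 and Tbk1 probe 6474, and at 9.05% of all probes. This count uses the wild-type IL-1β arrays that chose the genes, so nothing is read from it either.

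Over the 4 groups, Nfkbia probe 5529 averaged 15.13 ± 0.07 in IL-1R1-/- IL-1β, 15.06 ± 0.35 in IL-1R1-/- vehicle, 16.54 ± 0.59 in wild-type IL-1β and 14.75 ± 0.26 in wild-type vehicle glia (SD, n = 2, 2, 3 and 3). Wild-type IL-1β glia stood highest, and the IL-1R1-/- groups did not differ beyond their spread; the IL-1R1-/- IL-1β arrays (lowest 15.08) lay just above the highest wild-type vehicle array (15.05). Tnfaip2 averaged 14.61 ± 0.21 in IL-1R1-/- IL-1β, 15.40 ± 0.06 in IL-1R1-/- vehicle, 15.91 ± 0.11 in wild-type IL-1β and 14.54 ± 0.23 in wild-type vehicle glia (SD, n = 2, 2, 3 and 3). For Tnfaip2 the IL-1R1-/- IL-1β and wild-type vehicle groups did not differ beyond their spread, and the IL-1R1-/- vehicle group stood between these and wild-type IL-1β. For Birc3 the means ran 14.39 ± 0.12 and 14.17 ± 0.16 in IL-1R1-/- IL-1β and vehicle glia (SD, n = 2 each), and 14.69 ± 0.04 and 13.74 ± 0.05 in wild-type IL-1β and vehicle glia (SD, n = 3 each). Both IL-1R1-/- groups of Birc3 lay between the wild-type groups, and the lower IL-1R1-/- IL-1β array (14.30) was next to the higher IL-1R1-/- vehicle array (14.29).

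Levels without IL-1β were compared between the genotypes, a comparison that shares the wild-type vehicle arrays with the contrast that chose the genes. The size of the differences depends on the normalization. Without normalization between arrays they ran from log2 1.60 (Tbk1 probe 3522) to 2.94 (Tnfaip2) over the member probes, each with an SE of 1.11. Tnfaip2 in IL-1R1-/- vehicle glia had 1.81 times its level in wild-type vehicle glia (log2 0.86 ± 0.23 SE, n = 2 and 3) and did not pass, with a limma adjusted p = 0.243. Its adjusted p was 0.0467 with median centring, in a range of 0.0467 to 0.999 over 11 alternatives. With median centring 102 of all 5713 probes passed in this comparison, all 102 of them higher in IL-1R1-/- glia. In the main fit Birc3 had log2 0.43 ± 0.21 (SE) and Tbk1 probe 6474 had 0.41 ± 0.21 (SE), with limma adjusted p = 0.599 and 0.639. With the position trend removed they had 0.098 ± 0.19 and 0.082 ± 0.16 (SE), and Tnfaip2 0.63 ± 0.17 (SE, adjusted p = 0.317). At these 3 of 7 probes both IL-1R1-/- vehicle arrays lay above all wild-type vehicle arrays, as they did at 15.3% of all probes. After trend removal the vehicle arrays overlapped for Birc3 (lowest IL-1R1-/- 14.08, highest wild-type 14.24) and Tbk1 probe 6474 (14.71 and 14.74), and not for Tnfaip2 (15.20 and 14.75). Nfkbia had 0.31 ± 0.31 and 0.13 ± 0.29 on its probes, Peli1 0.25 ± 0.27 and Tbk1 probe 3522 -0.22 ± 0.28 (SE), all with overlapping groups. In limma 0 of the 7 passed, where 0.0175% of all probes did.

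Because changes depended on the place in the list, each member was set beside the 24 probes nearest to it in the list. In wild-type glia these neighbours had a median change of log2 0.072 around Nfkbia probe 5529, 0.11 around Nfkbia probe 6646 and 0.043 around Tnfaip2, and all 24 lay below the member in each case. The genes were chosen on this same change, so a member's place above its neighbours is a description, with nothing read from it. Around Birc3 the median was 0.59, with 24 of 24 neighbours above 0 and 22 below Birc3 itself. Around Tbk1 probe 6474 it was 0.48, with 24 of 24 above 0 and 16 below the probe. Around Peli1 it was 0.72, so Peli1 (0.64) lay under the median of its neighbours and above 10 of them. Tbk1 probe 3522, in another part of the list, had neighbours with a median of -0.28, of which 0 of 24 were above 0.

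**Figure D2:**
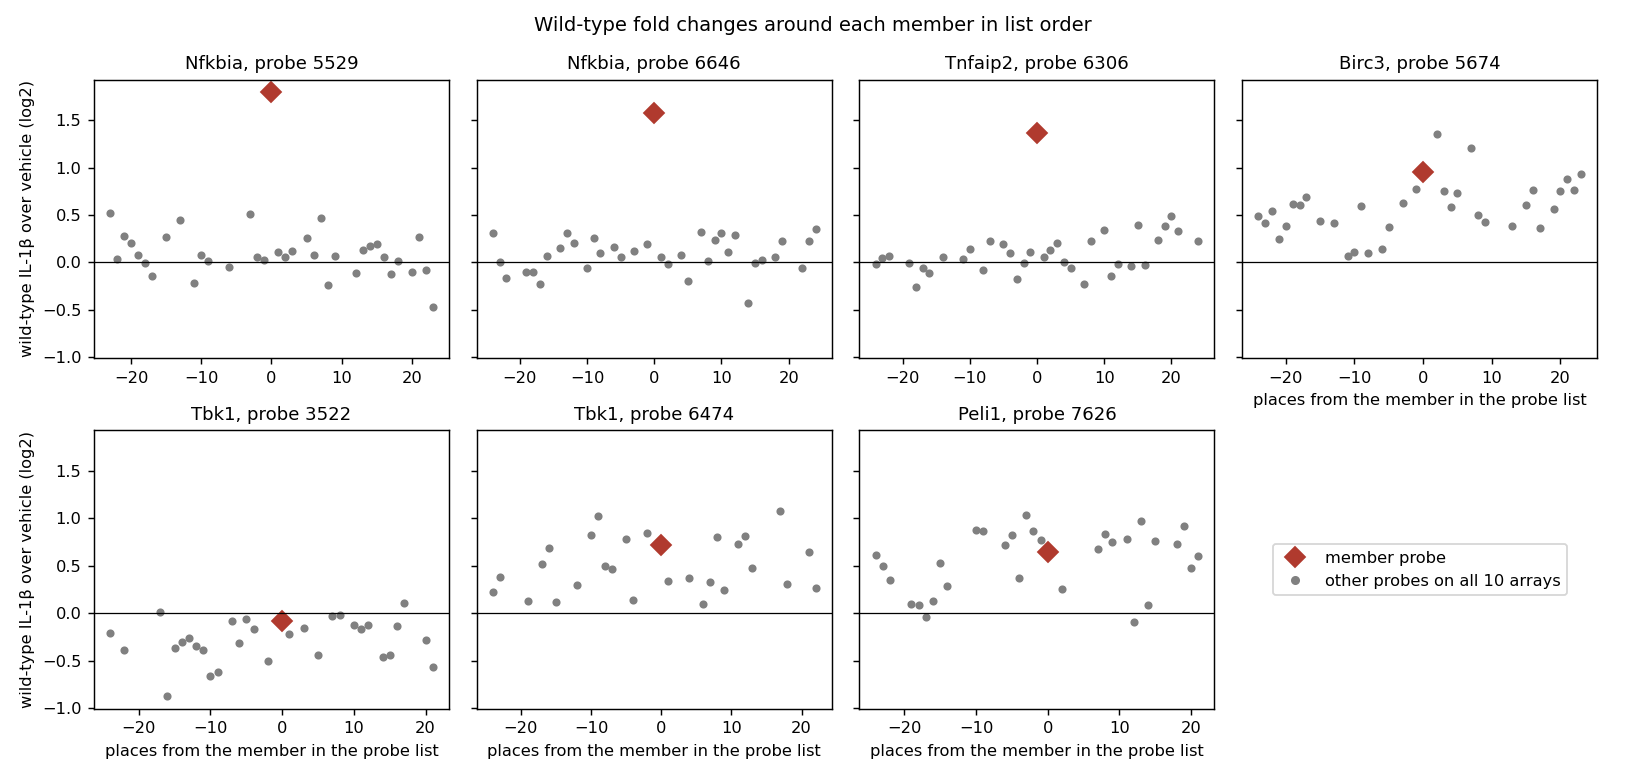
Wild-type IL-1β over vehicle log2 change of each member probe (red diamond) and of the other probes on all 10 arrays up to 24 places away in the probe list (grey). Nfkbia and Tnfaip2 lie above neighbours whose medians are 0.043 to 0.11, while Birc3, Tbk1 and Peli1 lie within the range of theirs. Of the 24 nearest probes, 22 lie below Birc3, 16 and 21 below Tbk1 probes 6474 and 3522, and 10 below Peli1. The genes were chosen on this change, so their height is a description.

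Each member was also set beside the probes in the same inferred well on other plates. The wells were inferred from these values and the genes chosen on this change, so the comparison is a description and not separate evidence. Tbk1 probe 6474 and the Peli1 probe share an inferred well, row 14 and column 18, on plates 17 and 20. Each had 8 other probes in that well, nearly all of them shared, and each counted among the 8 of the other. These sets had wild-type changes with a median of log2 0.71 for Tbk1 and 0.71 for Peli1 and a range of 0.57 to 1.26, beside 0.72 for Tbk1 and 0.64 for Peli1. For Birc3 the same well on 9 other plates had a median of 0.62 and a highest value of 0.85, below Birc3 (0.95). For Nfkbia the well medians were 0.16 on probe 5529 and 0.063 on probe 6646, and for Tnfaip2 0.053, with a highest value of 0.45 among all of these probes.

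With the position trend removed from every array, the wild-type change was log2 1.58 ± 0.16 and 1.54 ± 0.13 on the Nfkbia probes and 1.26 ± 0.13 for Tnfaip2 (SE, n = 3 pairs). It was 0.38 ± 0.12 for Birc3, 0.17 ± 0.12 and 0.25 ± 0.17 on Tbk1 probes 6474 and 3522, and 0.10 ± 0.13 for Peli1 (SE). The Tbk1 probes, which had differed in sign, thus lay within their errors of each other. The 3 probes of Nfkbia and Tnfaip2 passed in limma as higher, where 0.333% of all probes did, and the same 3 had wild-type IL-1β arrays wholly above the vehicle arrays, where 4.15% did. These counts come from the contrast that chose the genes and are given as a description, with nothing read from them. In IL-1R1-/- glia the trend-removed changes were -0.051 ± 0.19 and -0.15 ± 0.16 for Nfkbia, -0.51 ± 0.15 for Tnfaip2 (SE, n = 2 pairs; adjusted p = 0.517 in limma), 0.088 for Birc3, 0.017 and -0.063 for Tbk1 probes 6474 and 3522 and 0.22 for Peli1.

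**Figure D3:**
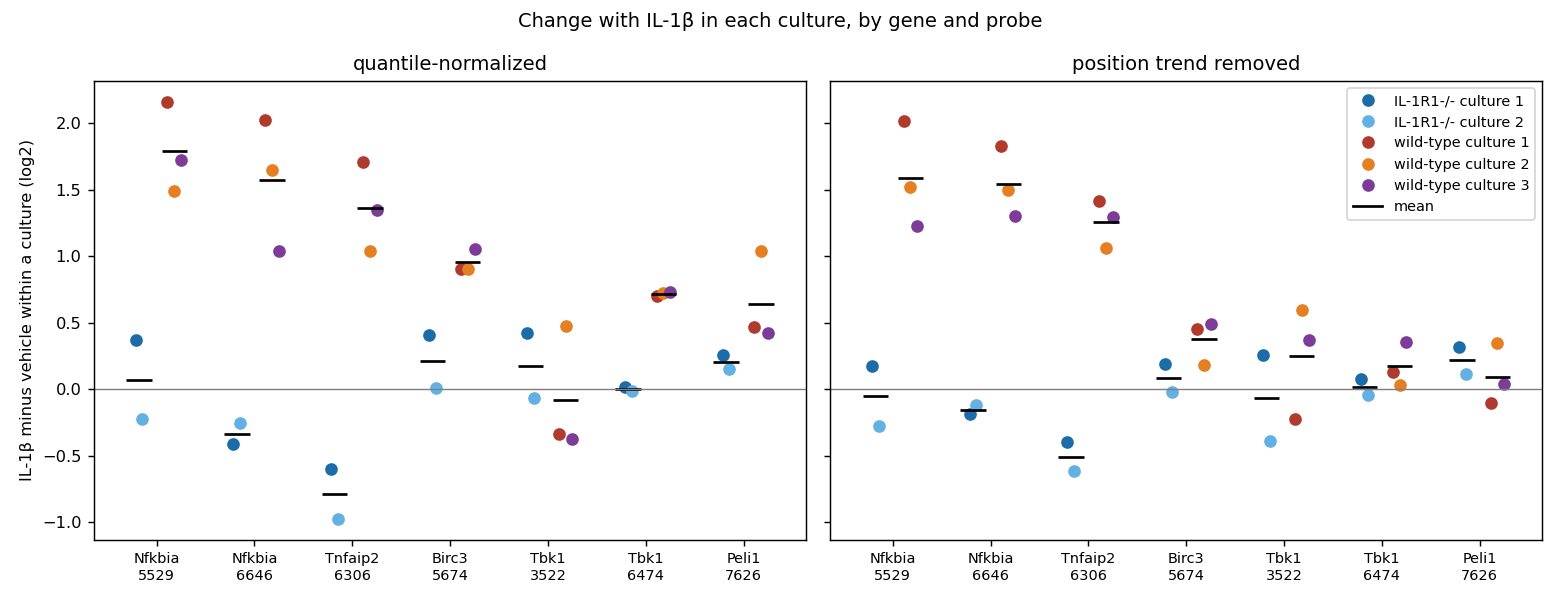
Change with IL-1β within each culture (log2, IL-1β minus vehicle) for the 7 member probes, IL-1R1-/- cultures left of wild-type cultures, before (left panel) and after (right panel) removal of the position trend. Bars mark means; Nfkbia and Tnfaip2 keep wild-type changes above 1 in both panels, while Birc3, Tbk1 probe 6474 and Peli1 lie closer to 0 after removal.

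The members' levels over the 10 arrays were compared by Pearson correlation, as a description: the arrays share their cultures, the 4 groups and the position trend. The 2 Nfkbia probes had r = 0.861 with each other and 0.809 and 0.834 with Tnfaip2, and after trend removal these were 0.899, 0.803 and 0.867. Tbk1 probe 6474 and Peli1 had r = 0.876, which was 0.0261 after trend removal. The 2 Tbk1 probes had r = -0.131 before and 0.488 after it.

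**Figure D4:**
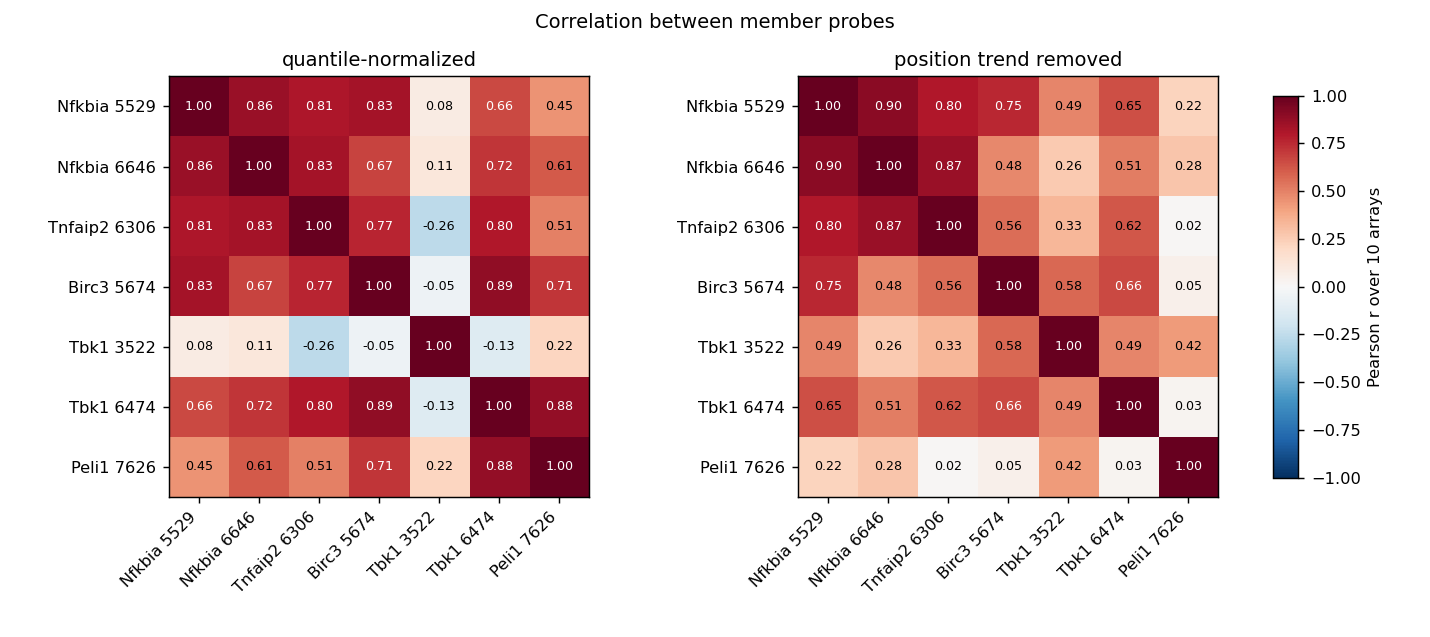
Pearson correlation of log2 intensity between the member probes over 10 arrays, before (left) and after (right) removal of the position trend. The Nfkbia and Tnfaip2 values stay at 0.80 or above, while that of Tbk1 probe 6474 with Peli1 is 0.0261 after removal and 0.876 before it.

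By the same measure the genes most like Nfkbia probe 5529 were Smim3 (r = 0.957), the chemokine gene Ccl12 (0.955), Usp18, which removes the ubiquitin-like ISG15 (0.924), Lcn2, which binds iron-carrying siderophores (0.92), and Ahcyl2 (0.919), each over 10 arrays. After trend removal these 5 had r between 0.925 and 0.96. Tnfaip2 was most like Preb (0.922), Gorasp2 (0.921) and the phosphodiesterase gene Pde4b (0.882), with 0.776, 0.357 and 0.773 after trend removal. Birc3 was most like Atxn7l4 (0.962), the AMP-activated kinase subunit Prkaa1 (0.93) and Nufip2 (0.921), and after trend removal these had 0.163, 0.824 and 0.785. Tbk1 probe 6474 was most like Plagl2 (0.959), Kcnc1 (0.952) and Gbp7 (0.932), and Peli1 most like St8sia1 (0.973), Dctn4 (0.971) and Bcl11a (0.941), whose probe is the next in the list. For Tbk1 these were 0.266, 0.399 and 0.608 after trend removal, and for Peli1 0.712, 0.773 and 0.639.

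Of 81 other genes of the IL-1 and NF-κB pathway on lists compiled by role, 19 had a probe and 15 could be tested. In wild-type glia 1 of 15 rose in limma and 0 fell, with a median change of log2 0.15 beside -0.04 over all probes, of which 4.55% were higher in limma. The gene that rose was Cyld, a deubiquitinase that restrains NF-κB, with 0.69, 1.20 and 0.86 in the 3 pairs (log2 0.92 ± 0.18 SE, adjusted p = 0.0154). After trend removal Cyld had 0.28 (adjusted p = 0.424), and 0 of the 15 passed. In IL-1R1-/- glia 0 of 15 passed, and Cyld had 0.23.

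Among upstream genes the receptor gene Il1r1 had a wild-type change of log2 0.58 ± 0.18 (SE, adjusted p = 0.0794 in limma), which was 0.29 after trend removal (adjusted p = 0.363). In vehicle glia its IL-1R1-/- minus wild-type difference was 0.096 ± 0.27 (SE); without the deleted part being known, this probe checks nothing about the genotype labels. The ligase gene Traf6 had -0.23 and 0.12 on 2 probes. The IκB kinase subunits Ikbkb and Ikbkg had -0.12 and -0.39. Of NF-κB subunits Nfkb2 had 0.20. The IκB family gene Nfkbiz had 0.60 ± 0.18 (SE, adjusted p = 0.0693), which was 0.046 after trend removal, and Birc2, the closest relative of Birc3, had 0.46 (0.22 after it). Myd88, the adaptor of the receptor, and the kinase gene Map3k7 lacked values on some arrays, with 8 and 6 of 10 present, and were not tested.

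**Figure D5:**
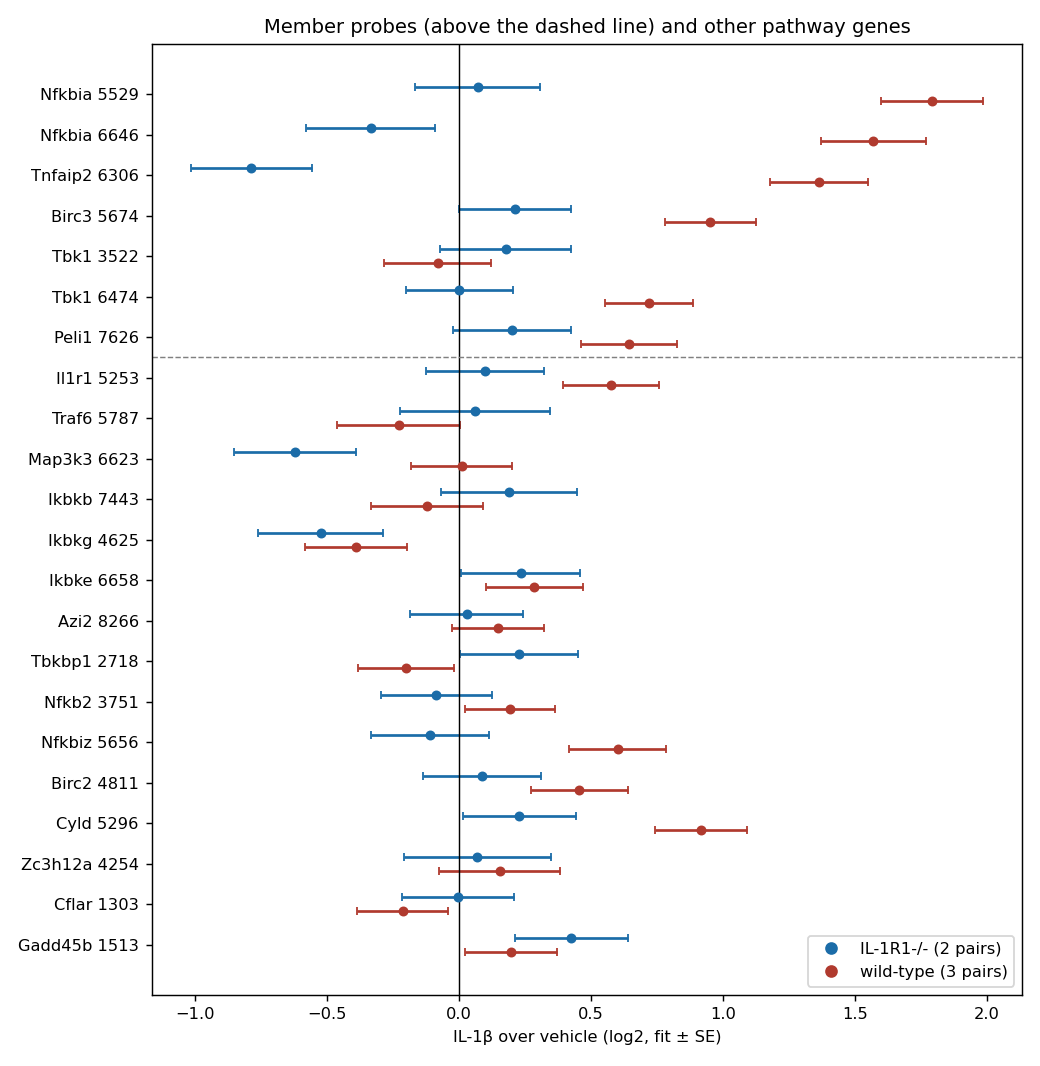
IL-1β over vehicle log2 change (fit ± SE) in IL-1R1-/- (blue) and wild-type (red) glia for the 7 member probes and for the brightest probe of 15 other pathway genes. Nfkbia and Tnfaip2 lie above 1 in wild-type glia, and of the genes below the dashed line Cyld has the highest wild-type value (0.92).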

How the data were processed

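The deposited values, a table of the whole series, are linear spot intensities, and no label or header names the software, background correction or normalization behind them. On the 10 arrays used, 370 to 1342 of 8734 probes had no value. Log2 intensities of the 5713 probes (65.4%) on all 10 arrays were quantile-normalized and fitted with limma 3.58.1 (R 4.3.3, statmod 1.5.0), blocking on culture and estimating the IL-1β effect separately in each genotype. Vehicle glia were compared with culture as a random block (correlation 0.388). P-values are two-sided and adjusted by Benjamini and Hochberg over all probes at 0.05. The number of arrays limits precision. P-values and SE in the main fits rest on the spread between the labelled independent replicates, pooled over both genotypes and moderated over all probes. An SE given with a number of pairs is therefore not the spread of those pairs alone.

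Pairing comes from the design text; the arrays of a culture deviated together (r 0.562 in IL-1R1-/-, 0.261 to 0.582 in wild-type). The position trend was smoothed per array over plate row and column (loess, span 0.2) in 2 parts, plates 1 to 11 and 12 to 23. The fit was tried on simulated arrays with random noise and a culture effect but no position trend, so that trial does not cover the trend.

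The members, lists and trend removal were chosen with earlier results of these data known, and the neighbour and same-well summaries after seeing them. All member probes, tested list genes past the threshold and a set of genes by role are named; the genes most like a member are the 5 (Nfkbia) or 3 with the highest r. A list gene is read on its brightest probe. The alternatives were median centring, no normalization, trend removal, no culture block, 1 genotype alone, all 12 columns, gaps kept, dim probes left out and each culture left out.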

Additional observations from a re-analysis of the deposited data

Results flagged for a closer look

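For 3 probes of 2 genes the genotypes stood apart in their IL-1β response, given here as a description. They were picked out by pairs of opposite direction or by a limma adjusted p under 0.05 for the difference. Of all 5713 probes, 9 had such an adjusted p, and how many had pairs of opposite direction was not counted. Every IL-1R1-/- pair was lower and every wild-type pair higher for Tnfaip2 (IL-1R1-/- minus wild-type response log2 -2.15) and for Nfkbia probe 6646 (-1.90). Nfkbia probe 5529 was picked out by the adjusted p alone. On it the IL-1R1-/- pairs had 0.37 and -0.23 and the wild-type pairs 2.16, 1.49 and 1.72 (difference -1.72). The difference contains the wild-type values that chose the genes, so it was not tested independently. In limma its adjusted p was above 0.05 for all 3 probes with no replicate block (0.623 on Nfkbia probe 5529, 0.506 on Nfkbia probe 6646 and 0.0716 for Tnfaip2) and without IL-1R1-/- replicate 2 (0.48, 0.188 and 0.168) or wild-type replicate 1 (0.2, 0.178 and 0.0689).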

How the results depend on the processing

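Nfkbia (both probes) and Tnfaip2 kept their wild-type direction in all alternatives, at log2 1.58 to 1.94, 1.34 to 1.84 and 1.19 to 1.53; Birc3 ran from 0.38 to 0.98, Tbk1 probe 6474 from 0.17 to 0.75 and Peli1 from 0.096 to 0.75. Tbk1 probe 3522 ran from -0.36 to 0.25. For the wild-type change, wild-type arrays alone and the omission of either IL-1R1-/- replicate gave the same fit. These settings, no replicate block and dim probes left out keep the main estimate by construction, so they could not change a direction. Tnfaip2 was absent from the fit on all 12 columns, because it has no value in the copied columns. Tbk1 probe 3522 was absent from the fit without the dimmest probes, being among them.

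Probes called in wild-type glia numbered 353, against 27 with the position trend removed, 14 with no replicate block, 175 with wild-type arrays alone, 150 on all 12 columns, 979 with gaps kept and 28 to 203 when a culture was left out (28, 53 and 203 without wild-type replicate 1, 2 and 3, and 175 without either IL-1R1-/- replicate). In IL-1R1-/- glia the count was 0, against 177 with median centring and 153 without normalization, with 1 higher in each. With these arrays alone the count was 108, with 40 higher. For the response difference it was 9, against 264, 240, 53 and 0 with median centring, no normalization, gaps kept and no replicate block, and 2 to 30 without a culture (3 and 2 without IL-1R1-/- replicate 1 and 2, 3, 30 and 13 without wild-type replicate 1, 2 and 3). For vehicle glia it was 1, against 102 with median centring, 0 with trend removal, no normalization, all 12 columns, gaps kept or dim probes left out, and 0 to 7 without a culture (7 without wild-type replicate 2, 1 without wild-type replicate 3 and 0 without any other). The pathway count of 1 (Cyld) was 0 with trend removal, with no replicate block and without wild-type replicate 1 or 2 (0 to 1 without a culture). The cause was not tested.

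Among values that did not pass, the IL-1R1-/- response changed sign for Tbk1 probe 3522 (-0.063 with trend removal, -0.16 on 12 columns, -0.065 to 0.42 without a culture), Nfkbia probe 5529 (-0.051 with trend removal, -0.11 median centring, -0.082 no normalization, -0.064 on 12 columns, -0.23 to 0.37 without a culture) and Tbk1 probe 6474 (-0.089 median centring, -0.058 no normalization, -0.022 gaps kept, -0.012 to 0.016 without a culture). The vehicle difference did so for Tbk1 probe 3522 (0.16 with trend removal, 1.60 without normalization, -0.57 to 0.12 without a culture), Nfkbia probe 6646 (-0.063 to 0.32 without a culture) and Peli1 (-0.079 with trend removal). With 1 IL-1R1-/- culture left, that culture is assumed to vary like the others.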
